A study of Homo sapiens with 12 samples.

Results

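MKL-1 cells kept in the EZH2 inhibitor EPZ011989 for 12 days were compared with the same line kept in it for 6 days. MKL-1 is an established cell line from a human Merkel cell carcinoma, a neuroendocrine skin cancer, and carries the Merkel cell polyomavirus. The comparison takes in every library whose title gives the inhibitor, 3 at day 6 and 3 at day 12, and so 6 of the 12 libraries of the series. Both treated groups received 3 µM EPZ011989 in 1% ethanol. The other 6 libraries, 3 at each day, came from MKL-1 cells that received 1% ethanol alone (the vehicle), and serve here only as a reference for time in culture. In all 4 groups the drug or vehicle was renewed every 3 days, so the treated cells of day 12 and of day 6 differ in the length of exposure and in time in culture at once. A single cell line was used. The labels do not say whether the 3 libraries of a group came from separate cultures, and the p-values below therefore measure the spread between libraries, part of which may be technical. The RNA was selected for poly(A) tails and sequenced. Levels are in CPM (counts per 1e6), the reads of a gene in proportion to all reads of its library. They were scaled between libraries except where stated.

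EZH2 is the enzyme at the core of PRC2, a Polycomb complex that puts methyl groups on a lysine of histone H3 at genes kept silent, and EPZ011989 blocks that activity. In dividing cells the mark is diluted when DNA is copied, so that its loss after inhibition, and the gene changes that go with it, can take several divisions. EZH2 is itself expressed mostly in dividing cells, as a target of E2F transcription factors. Merkel cells are touch receptor cells of the skin that share with the hair cells of the inner ear a set of transcription factors, among them ATOH1, POU4F3, GFI1 and ISL1, and Merkel cell carcinoma expresses part of that set together with neuroendocrine granule genes.

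Each library held between 15501935 and 20208917 estimated reads assigned to genes. In a principal component analysis over the 15024 tested genes, the first component took 61.1% of the variance and put the treated libraries of day 6 at 7.90 to 8.55, those of day 12 at 94.7 to 100.1, and all vehicle libraries between -58.4 and -51.3. The second component (9.74%) set the treated libraries of day 6, at -45.0 to -40.3, apart from the other 9. Vehicle day 12 replicate 1 stood apart from its group on the third (6.07%). The treated libraries of day 12 had more genes with at least 10 reads (14616 to 14829) than those of day 6 (14020 to 14507), and a larger share of reads on transcripts that no annotated gene matched (3.55 to 3.58% against 3.08 to 3.15%). The part of these shifts in the results was not tested. All 10 markers of the Merkel cell were detected, with a summed level of 3021 to 3091 CPM at day 6 and 2969 to 3127 CPM at day 12 of treatment. Markers of 5 other cell types were low at both days. Summed over each list, keratinocyte markers stood at 6.03 to 6.93 CPM at day 6 and 5.71 to 7.96 CPM at day 12. Fibroblast markers stood at 21.8 to 30.0 and 18.6 to 21.5 CPM, and leukocyte markers at 2.32 to 3.12 and 2.14 to 2.53 CPM. Endothelial markers, at 0.464 to 1.55 and 1.83 to 2.69 CPM, and melanocyte and glial markers, at 2.15 to 3.03 and 3.42 to 4.82 CPM, were higher in each treated library of day 12 than in any of day 6. The sums of longer lists for these types overlapped between the days, at 18.9 to 20.6 and 18.6 to 20.7 CPM for endothelium and 6.00 to 8.47 and 6.90 to 7.89 CPM for melanocytes and glia. These longer sums hold tested genes only, on scaled totals, whereas the marker sums hold all markers, tested or not, on unscaled totals. No marker of these lists was without a read in all 12 libraries. In the longer lists for the 5 types few genes passed the low-count filter: 3 of 16 for keratinocytes (2 fell), 5 of 10 for fibroblasts (3 fell), 4 of 12 for leukocytes (1 fell), 6 of 8 for endothelium (1 rose, 2 fell) and 7 of 12 for melanocytes and glia (1 rose, 2 fell). Some of these calls, in endothelium, in melanocytes and glia and in keratinocytes, are lost when single libraries are left out. The 3 falls of the fibroblast list are not called with transcript lengths as an offset. In that list 2 genes fell in vehicle cells, and against the vehicle change 1 was higher and 0 lower.

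**Figure D1:**
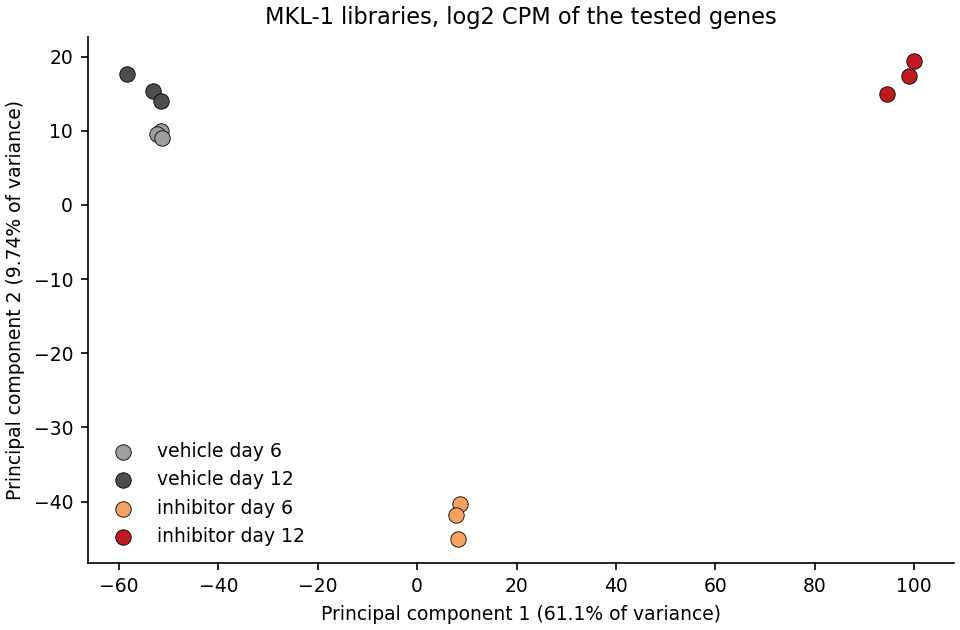
Position of each of the 12 libraries on the first (x) and second (y) principal components of log2 CPM over the tested genes, coloured by group. Day 6 and day 12 of vehicle lie together at the left. The 3 treated libraries of day 12 lie at 94.7 to 100.1 on the first component, beyond the treated libraries of day 6 at 7.90 to 8.55.

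Between day 6 and day 12 of treatment, nearly all listed genes for cell division fell, most tested genes of the hair bundle of inner ear hair cells and of motile cilia rose, and more genes rose than fell in the lists for neural adhesion and guidance, for ion channels and for hormone granules. Some genes of the bundle, cilium and granule lists may have passed the low-count filter only through the treated libraries of day 12. For these lists the statement is therefore a description. Of 15024 genes tested, 4178 were higher at day 12 and 4480 lower, at an adjusted p under 0.05 (edgeR's quasi-likelihood test, Benjamini-Hochberg adjustment over all tested genes), which is 27.8% and 29.8% of the genes tested. In vehicle cells over the same days 896 genes (5.96%) were higher and 1074 (7.15%) lower. Without regard to the call, the median size of the log2 change was 0.40 in treated cells and 0.17 in vehicle cells. The change of treated cells was also set against that of vehicle cells gene by gene, as the difference of the 2 log2 changes, and this difference was positive for 3401 genes (22.6%) and negative for 3767 (25.1%) at the same threshold. Of the 8658 genes that changed in treated cells, 6315 (72.9%) also differed from the vehicle change in the same direction. CPM are shares of a library's RNA, and in such bulk samples fewer cells that express a gene and less of its RNA in each cell cannot be told apart. The vehicle counts moved by more than 1.5 times with which library was left out (93 to 2147 higher, 89 to 2036 lower), so the difference is given beside the counts of each list below. Those counts are to be read against the 27.8% higher and 29.8% lower over all tested genes.

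The larger rises outnumbered the larger falls, although slightly more genes fell than rose. At least 2-fold changes were called for 1364 genes upward and 1096 downward, at least 4-fold changes for 485 and 145, and at least 8-fold changes for 197 and 37. The split differed with the level of the gene. Among the 1505 tested genes with a mean under 1 CPM over all 12 libraries, 288 rose and 88 fell. A gene this low passes the low-count filter mostly through the group where it is highest, so the counts at low levels are a description. Of the 2599 genes at 100 CPM or more, 709 rose and 1242 fell, 74 and 152 of them by at least 2-fold. The 3 treated libraries of one day lay all above the 3 of the other for 10088 genes (67.1% of those tested), and 8516 of these were called. Of the 1970 genes called in vehicle cells, 1315 were called in treated cells too, which is 66.8% of the vehicle list and 15.2% of the treated list. Over all tested genes the shares were not far from these, with 57.6% called in treated and 13.1% in vehicle cells. The 1315 genes moved in the same direction in 680 cases and in opposite directions in 635.

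**Figure D2:**
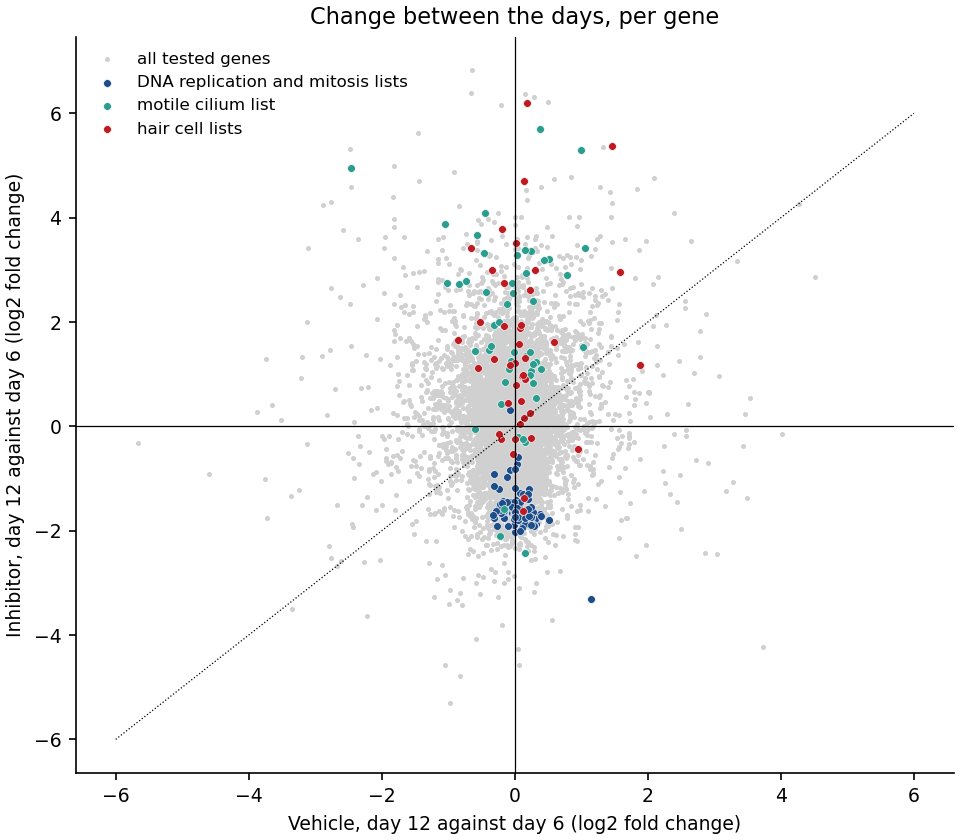
Log2 change from day 6 to day 12 in vehicle cells (x) against that in treated cells (y) for the 14896 tested genes with a read in all 4 groups, grey unless in a replication or mitosis (blue), cilium (green) or hair cell (red) list, with a dotted line of equal change. The points spread further along the treated axis, where the median size of change over all tested genes is 0.40 on the log2 scale, than along the vehicle axis, where it is 0.17.

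All 40 tested genes of DNA replication and its licensing fell, with a median log2 change of -1.57, against a median of 0.0044 over all tested genes. In vehicle cells the median of these 40 was -0.0008, with 1 called higher and 6 lower, and all 40 fell further in treated than in vehicle cells by the test of the difference. Their summed level, 7473 CPM in vehicle cells at day 6 and 5906 CPM in treated cells at day 6, stood at 2149 CPM in treated cells at day 12. MCM3, a subunit of the helicase that opens DNA at origins (chr6:52264009-52284881, minus strand), stood at 314, 324 and 327 CPM in the treated libraries of day 6. At day 12 it stood at 101, 109 and 106 CPM, a log2 change of -1.61 ± 0.04 (standard error, n = 3 libraries a group, edgeR adjusted p = 3.15e-12). Every library of day 12 was lower than every library of day 6. The 6 subunits of that helicase fell together, from MCM3 at -1.61 to MCM7 at -1.19 on the log2 scale. The clamp PCNA, which holds polymerases on DNA, went from 326, 345 and 345 to 99.8, 112 and 99 CPM. POLE, the catalytic subunit of the leading-strand polymerase, went from 380.2, 380.3 and 404 to 138, 153 and 137 CPM. Genes that load the helicase at origins fell as well, with log2 changes of -1.94 ± 0.09 for ORC1, -1.73 ± 0.09 for CDC6 and -1.76 ± 0.06 for CDT1. The smallest changes of the list were those of RPA2 and RPA1, of the protein that coats single-stranded DNA, at -0.60 ± 0.05 and -0.81 ± 0.05. RRM2, the small subunit of ribonucleotide reductase, had the steepest fitted fall, but only part of its reads could be assigned to the gene here (0.35 times its level in the authors' table relative to the median gene), and its size is uncertain.

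Of 48 tested genes for mitosis, the spindle and the kinetochore, 47 fell and 1 rose, with a median log2 change of -1.71. In vehicle cells 15 of them were higher at day 12, none was lower, and the median was 0.16. Against the vehicle change 46 were lower and 1 higher. MKI67, the antigen used to mark dividing cells (chr10:128096659-128126385, minus strand), stood at 757, 769 and 781 CPM at day 6 and at 213, 219 and 202 CPM at day 12 of treatment. Its log2 change was -1.87 ± 0.05 (adjusted p = 3.15e-12), and the days did not overlap. Vehicle libraries held 1022, 912 and 963 CPM of it at day 6 and 1103, 1091 and 1044 CPM at day 12. The largest fall of the list was that of the spindle checkpoint kinase BUB1B (chr15:40161023-40221136, plus strand), from 126, 133 and 128 CPM to 29.3, 34.9 and 31.4 CPM. CDCA8, which encodes a subunit of the chromosomal passenger complex, went from 90.4, 87.8 and 87.4 to 28.6, 28 and 27.5 CPM. Kinases that drive entry into and passage through mitosis fell, with log2 changes of -1.73 ± 0.07 for CDK1, -1.80 ± 0.09 for PLK1 and -1.92 ± 0.15 for AURKB. The exception was CDC25B, a phosphatase that activates cyclin-dependent kinases, which rose from 214, 219 and 222 to 279, 262 and 273 CPM.

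The promoters of these lists carry different letters, which are shown because both lists fell together. Genes of DNA replication are known for E2F sites, and late cell cycle genes for the cell cycle genes homology region (CHR), the element bound by the DREAM and MYB-MuvB complexes. Promoter sequences came from RefSeq (GRCh38.p14), 250 bases before to 50 bases after each gene's start, and were searched on both strands for TTTGAA (CHR), for CCAAT (a box found in many promoters), and for TTTCGCGC, TTTGGCGC, TTTCCCGC and TTTGCCGC (E2F sites). The CHR letters stood in 29 of the 42 mitosis promoters with a sequence (69.0%), in 1 of 34 replication promoters (2.94%) and in 9.66% of the promoters of 11269 tested genes. The E2F letters stood in 18 of the 34 replication promoters (52.9%), in 2 of the 42 mitosis promoters (4.76%) and in 5.24% of those of tested genes. Over all 27305 promoters of the table the shares were 15.4% for CHR and 3.33% for E2F. CCAAT letters were found in 55.9% of the replication, 71.4% of the mitosis and 36.5% of the tested promoters. A match is a description of the letters and not evidence of binding. Below are 100 bases of 3 promoters of replication genes that hold an E2F match, then of 3 mitosis genes that hold a CHR match, each 5′ to 3′ along its gene, with every matched motif in capitals. They lie at chr7:100101398-100101497 (MCM7, minus strand), chr20:5126633-5126732 (PCNA, minus), chr12:132687343-132687442 (POLE, minus), chr15:40160962-40161061 (BUB1B, plus), chr1:37692413-37692512 (CDCA8, plus) and chr10:128126433-128126532 (MKI67, minus).
MCM7: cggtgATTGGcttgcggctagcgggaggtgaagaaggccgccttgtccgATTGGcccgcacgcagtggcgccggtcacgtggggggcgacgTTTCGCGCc
PCNA: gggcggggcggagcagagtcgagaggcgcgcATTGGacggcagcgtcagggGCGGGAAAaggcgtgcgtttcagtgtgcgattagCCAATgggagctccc
POLE: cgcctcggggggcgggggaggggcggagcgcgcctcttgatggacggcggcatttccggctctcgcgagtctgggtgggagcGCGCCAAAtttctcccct
BUB1B: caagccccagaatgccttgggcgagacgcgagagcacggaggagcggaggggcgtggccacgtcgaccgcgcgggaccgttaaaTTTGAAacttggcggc
CDCA8: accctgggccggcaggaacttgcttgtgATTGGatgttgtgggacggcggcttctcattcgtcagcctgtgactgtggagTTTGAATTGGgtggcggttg
MKI67: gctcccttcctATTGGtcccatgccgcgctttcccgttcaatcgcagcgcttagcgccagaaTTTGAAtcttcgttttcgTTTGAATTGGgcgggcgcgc
In MCM7 the E2F match begins 9 bases before the start. In POLE and in PCNA it reads on the other strand and begins 18 and 59 bases before the start. The CHR match begins 23 bases before the start in BUB1B and in CDCA8. Starts here are those of RefSeq and can differ from the gene coordinates given above. For BUB1B they do, and its CHR match lies within the coordinates given for that gene. MKI67 has a CHR match at 47 and at 29 bases before the start, the second of which shares its last base with a CCAAT match on the other strand, as does the CHR match of CDCA8. None of the 3 mitosis windows holds an E2F match, and none of the 3 replication windows a CHR match.

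Among 28 tested RB, E2F and DREAM factors, which set the timing of those genes, 20 fell and 3 rose, with a median log2 change of -0.71, and against the vehicle change 18 were lower and 2 higher. MYBL2, the MYB factor that joins MuvB to switch on mitotic genes (chr20:43667019-43716496, plus strand), went from 328, 339 and 342 CPM to 77, 87.1 and 82.2 CPM, and FOXM1, which acts with it, from 112, 111 and 115 to 26.5, 29.5 and 32.2 CPM. E2F1, an activator of replication genes, changed by -1.73 ± 0.08 on the log2 scale, and E2F8, a repressor of the same family, by -2.26 ± 0.13. Cyclin E, which starts DNA synthesis with CDK2, fell in both its forms, with changes of -1.44 ± 0.11 for CCNE1 and -2.22 ± 0.07 for CCNE2. Members of the repressive complexes did not all pass the test: E2F4 stood at 0.03 ± 0.06, RBL2 at 0.08 ± 0.06, LIN52 at -0.07 ± 0.09 and E2F5 at -0.05 ± 0.10. RB1, the retinoblastoma protein, fell from 149.6, 137 and 139 to 98.7, 99.9 and 94.4 CPM. Risers were CDK6 (0.53 ± 0.11), TFDP2 (0.56 ± 0.06), a partner of E2F proteins, and LIN37 (0.50 ± 0.13). With transcript lengths as an offset, or with limma on the authors' table, 1 of these rises was called in place of 3.

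Of 6 tested inhibitors of cyclin-dependent kinases 2 rose and 3 fell, and the difference from vehicle was positive for 2 and negative for 3. CDKN1C (p57), an imprinted inhibitor that many cells express on leaving the cell cycle (chr11:2883213-2885773, minus strand), stood at 96.1, 89.8 and 90.5 CPM at day 6 and 346, 365 and 389 CPM at day 12. The log2 change was 1.99 ± 0.10 (adjusted p = 4.71e-10). Vehicle libraries held 12.5, 14.8 and 15.4 CPM at day 6 and 9.65, 13.5 and 15.6 CPM at day 12, below every treated library of day 12. CDKN1A (p21) rose from 77.5, 80.2 and 82.1 to 188, 179.5 and 193 CPM. CDKN2C (p18), CDKN1B (p27) and CDKN3, a phosphatase of cyclin-dependent kinases, fell, with log2 changes of -1.01 ± 0.07, -0.35 ± 0.06 and -1.68 ± 0.10. CDKN2D, at 0.18 ± 0.22, did not pass the test.

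Genes for homologous recombination and the Fanconi pathway, which repair broken and cross-linked DNA, fell in 26 of 30 tested cases with none higher (median log2 change -1.39). In vehicle cells 5 were higher and 1 lower, and against the vehicle change 28 were lower and 1 higher. BRCA1 went from 81.1, 80.5 and 71.9 to 25, 25.6 and 27.2 CPM, and BRCA2 changed by -1.80 ± 0.11 on the log2 scale. FANCB, part of the core complex of the pathway, had one of the 15 largest falls among genes with a well-assigned sum, from 9.35, 8.46 and 7.67 CPM to 1.18, 1.76 and 1.91 CPM. The fitted fall of FANCD2, -4.58 ± 0.58, is uncertain in size, since its reads were summed at 0.73 times its level in the authors' table. RAD50 (0.00 ± 0.06) and FANCE (0.10 ± 0.09) did not pass the test, nor did the kinases ATM and ATR, which were summed only in part. E2F letters stood in 19.2% of this list's promoters and CHR letters in 7.69%.

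The target of the drug was itself lower at the later day. EZH2 (chr7:148807383-148884321, minus strand) stood at 137, 138 and 142 CPM in the treated libraries of day 6 and at 60.8, 61.8 and 57.2 CPM at day 12, with no overlap. The log2 change was -1.21 ± 0.05 (adjusted p = 9.2e-11), against 0.15 ± 0.05 in vehicle cells, and the difference was -1.36 ± 0.07 (adjusted p = 2.56e-09). A message level says nothing of whether the enzyme was blocked. Of 13 tested PRC2 subunits 6 fell and 2 rose (median -0.25), and the difference was negative for 5 and positive for 1. SUZ12, a core subunit, changed by -0.45 ± 0.08 and PHF19, an accessory subunit that reads chromatin, by -1.30 ± 0.09. The histone binders RBBP4 and RBBP7 fell, at -0.52 ± 0.04 and -0.78 ± 0.05. EED, the subunit that reads the mark and here summed at 0.58 times its level in the authors' table, had a change of -0.15 ± 0.16 that did not pass the test, nor did MTF2 at 0.00 ± 0.08. JARID2, an accessory subunit that guides the complex, rose from 146, 161 and 149 to 292, 269 and 282 CPM. EZH1, the catalytic relative that is also found in cells at rest, rose from 58.6, 54.6 and 58.3 to 67.5, 68 and 75.8 CPM, a log2 change of 0.30 ± 0.08 that was not called with transcript lengths as an offset or by limma.

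The second Polycomb complex, PRC1, showed no common direction, with 8 of 25 tested subunits higher and 10 lower (median -0.08), and 6 higher and 10 lower against the vehicle change. Over all tested genes 27.8% were higher and 29.8% lower. Among the readers of the mark CBX8 rose by 0.75 ± 0.08, while CBX2 changed by -0.44 ± 0.05. PCGF2, which defines 1 form of the complex, fell from 33.7, 33.8 and 38.7 to 20.4, 21.8 and 8.99 CPM. Enzymes that act against Polycomb and SWI/SNF subunits were split, 8 of 35 higher and 15 lower (2 to 3 higher and 8 to 9 lower with transcript lengths as an offset or by limma), with 4 positive and 9 negative differences. KDM6B, a demethylase of the PRC2 mark, rose from 104, 98.9 and 108 to 185, 197 and 202 CPM with no overlap between the days. NSD2, a methyltransferase of another lysine of histone H3, fell from 288, 295 and 297 to 131, 138 and 134 CPM. For DNA methylation 8 of 14 tested genes fell and 3 rose (5 falls with transcript lengths as an offset or by limma), with 8 negative and 2 positive differences. DNMT1, which copies methylation after replication, changed by -0.88 ± 0.04, and DNMT3A, which sets it anew, by 0.50 ± 0.06 on the log2 scale.

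**Figure D3:**
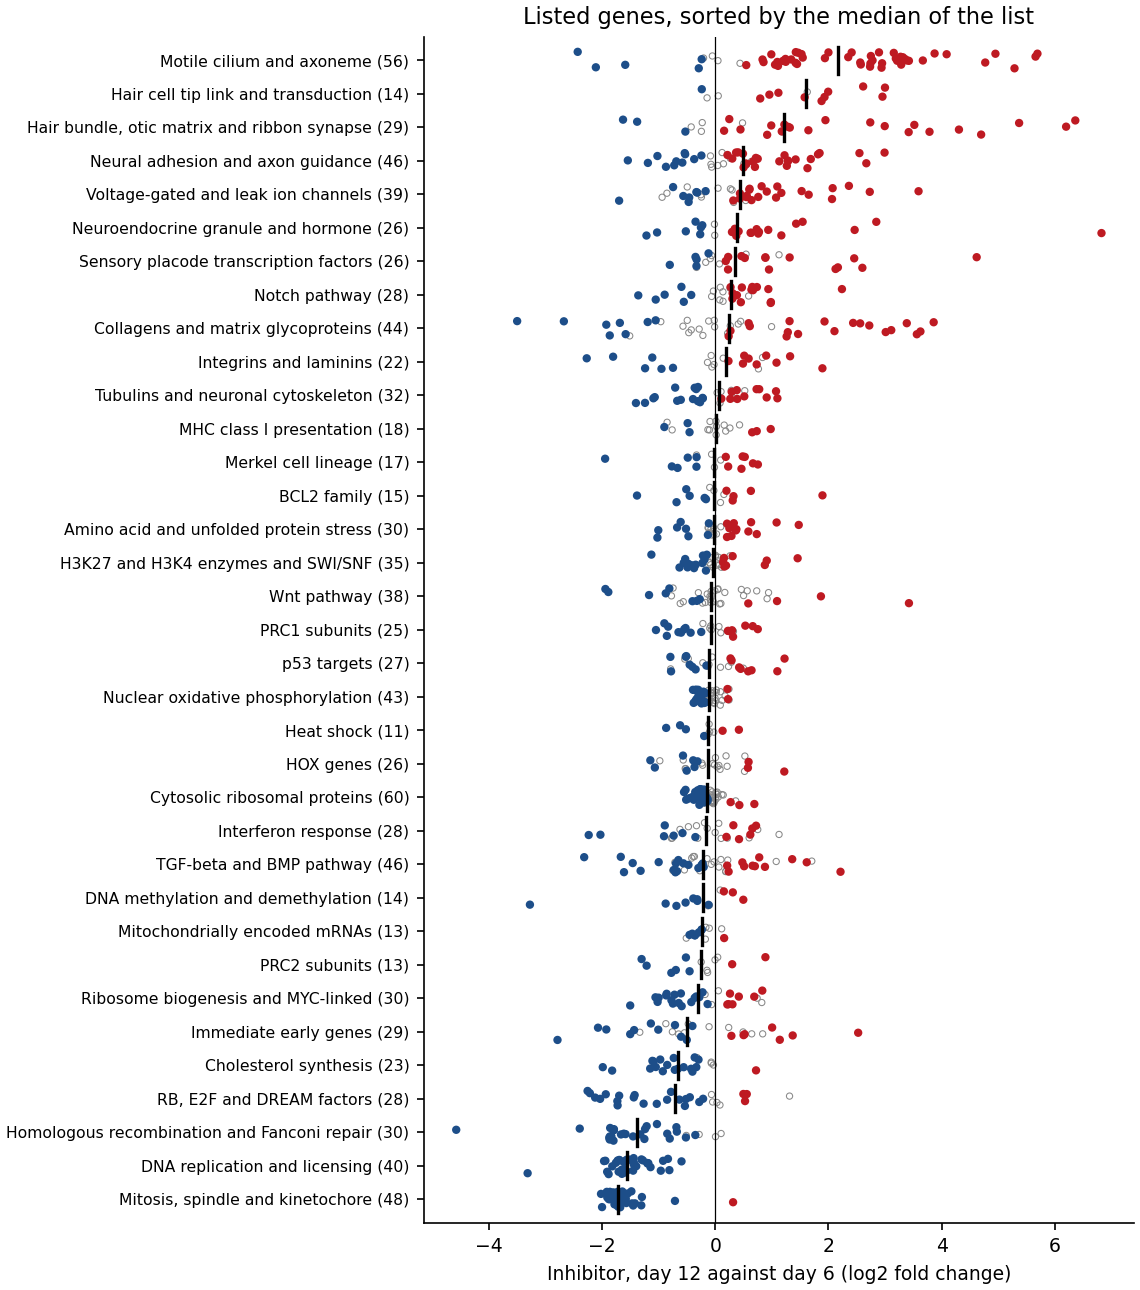
Log2 change from day 6 to day 12 in treated cells (x) of each tested member of the gene lists (y, lists of at least 10 tested genes, number in brackets), 1 point a gene, red or blue where called higher or lower, open where not called, with a bar at the list's median and members with no read in a treated group left out. Nearly all replication, mitosis and repair genes lie to the left of 0 and most genes of the hair cell and cilium lists to the right.

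Most tested genes of the hair cell's sensory bundle rose. Of 18 listed genes of the tip link and the transduction channel, which turn movement of the bundle into current, 14 passed the low-count filter, and of these 10 rose and 1 fell, with a median log2 change of 1.6. In vehicle cells 1 rose and 1 fell (median 0.07), and against the vehicle change 8 were higher and 1 lower. CDH23, the cadherin of the upper part of the tip link (chr10:71396934-71815947, plus strand), stood at 335, 337 and 345 CPM at day 6 and 2177, 2022 and 2032 CPM at day 12. The log2 change was 2.61 ± 0.05 (adjusted p = 9.22e-13), while vehicle libraries held 54.9, 60 and 58.2 CPM at day 6 and 63, 66.1 and 74.3 CPM at day 12. Its summed reads were 1.27 times its level in the authors' table relative to the median gene. PCDH15, the partner cadherin of the lower part, went from 1.27, 1.47 and 1.1 to 11.8, 8.24 and 10.8 CPM. CIB2, a calcium-binding part of the channel complex (chr15:78104606-78131544, minus strand), rose from 35, 35.7 and 38.9 to 150.1, 139 and 147 CPM. TMC2, a pore subunit, was near the detection limit at day 6 (0.294, 0.32 and 0.288 CPM) and reached 3.02, 1.76 and 2.36 CPM. A gene this low at day 6 may have passed the low-count filter only through the treated libraries of day 12. The counts and the median of this list are therefore a description. The motor MYO7A, at 0.05 ± 0.08, and the scaffold USH1C, at -0.14 ± 0.12, did not pass the test. The 1 fall was not called by limma on the authors' table.

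In a further list of 40 genes for the bundle's actin core, the otic matrix and the ribbon synapse, 29 were tested, of which 21 rose and 3 fell (median 1.22), against 3 and 0 in vehicle cells (median 0.09), and the difference was positive for 17 and negative for 3. MYO15A, the motor that carries growth proteins to the tips of stereocilia (chr17:18108706-18179806, plus strand), rose from 3019, 2835 and 3018 CPM to 5618, 5690.3 and 5454 CPM. MYO6, a motor of the bundle's base, rose from 713, 737 and 693 to 1834, 1714 and 1796 CPM. The actin bundler ESPN changed by 1.29 ± 0.11 and its relative ESPNL by 3.0 ± 0.11 on the log2 scale. EPS8L2, an actin regulator of stereocilia, went from 11.1, 8.33 and 13.6 CPM to 134, 119 and 126 CPM. Otoferlin (OTOF), the calcium sensor of the hair cell's synapse, went from 49.4, 46.7 and 51.8 to 210.1, 167 and 194 CPM. PTPRQ, a phosphatase at the base of the bundle, had 0.245, 0 and 0 CPM at day 6, under the level that 3 reads give (0.147 to 0.192 CPM) in 2 libraries, and 9.2, 6.53 and 8.65 CPM at day 12. Such a gene may have passed the low-count filter only through the treated libraries of day 12, so the counts and median here are a description. Stereocilin (STRC), which links stereocilia (chr15:43599563-43618800, minus strand), went from 5.83, 8.65 and 8.6 to 230.3, 176 and 188 CPM, but it has a near-identical pseudogene with which its reads can be confused. The fallers were MYO3A (-1.63 ± 0.14), a motor of the stereocilium tip whose relative MYO3B rose (3.42 ± 0.78), the cochlear matrix protein COCH (-1.38 ± 0.06), and EPS8 (-0.53 ± 0.12).

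Of 36 listed transcription factors of the sensory placodes, the embryonic source of ear and nose, 26 were tested, of which 14 rose and 5 fell (median 0.35), and 12 were higher and 4 lower against the vehicle change. PAX2, a factor of the otic placode (chr10:100735603-100829941, plus strand), stood at 40, 39.9 and 37.7 CPM at day 6 and 225, 203 and 218 CPM at day 12. Its log2 change was 2.46 ± 0.10 (adjusted p = 6.36e-11), and vehicle libraries held 3.59, 3.36 and 3.75 CPM at day 6 and 1.48, 2.69 and 3.15 CPM at day 12. EYA1, a transcriptional cofactor of placodes, went from 1.76, 2.31 and 3.12 to 15.6, 14.1 and 13.8 CPM. GBX2, an otic patterning factor, changed by 2.17 ± 0.16 on the log2 scale. BARHL1, expressed in hair cells, had 0.343, 0.192 and 0.173 CPM at day 6, 7.11, 4.77 and 6.4 CPM at day 12 and no read in the vehicle libraries. It passed the low-count filter only through the treated libraries of day 12, so the counts and median of the placode list are a description. Differences were small in the factors that the carcinoma shares with Merkel cells and hair cells. ATOH1, the factor that starts both fates (chr4:93828753-93830964, plus strand), stood at 637, 637 and 618 CPM at day 6 and at 585, 595 and 629 CPM at day 12, and its change of -0.06 ± 0.04 did not pass the test (adjusted p = 0.215). POU4F3 rose by 0.19 ± 0.03 and SOX2 by 0.23 ± 0.07, the latter not called without treated day 6 replicate 3 (adjusted p = 0.0741) or treated day 12 replicate 2 (adjusted p = 0.0649). GFI1 rose by 0.46 ± 0.05, and ISL1 and INSM1 changed by -0.33 ± 0.05 and -0.33 ± 0.10.

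The wider Merkel lineage list, which shares several of those factors, had 7 of 17 genes higher and 6 lower, a median of -0.01, and 8 positive and 5 negative differences from vehicle. Keratins of simple epithelia, which mark Merkel cells, went different ways. KRT19 fell from 68.2, 69 and 68.4 to 15.4, 19.2 and 18.8 CPM and KRT18 rose from 98.6, 103 and 102 to 144, 139.5 and 142 CPM, while KRT8, at 0.10 ± 0.06, did not pass the test. KRT20, the keratin used to diagnose the tumour, stood at 67.6, 74.9 and 90.7 CPM at day 6 and 66.6, 77.3 and 87 CPM at day 12, with overlapping libraries and a change of -0.01 ± 0.16 that was not called. Only part of its reads was assigned here (0.31 times its level in the authors' table). The adhesion protein EPCAM fell from 119, 113 and 104 to 64.7, 67.9 and 65.2 CPM, whereas E-cadherin (CDH1) rose from 12.9, 13.1 and 12.9 to 27.1, 18.5 and 20.1 CPM. HES6, an inhibitor of HES1 that favours neural fates, changed by 0.67 ± 0.16.

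**Figure D4:**
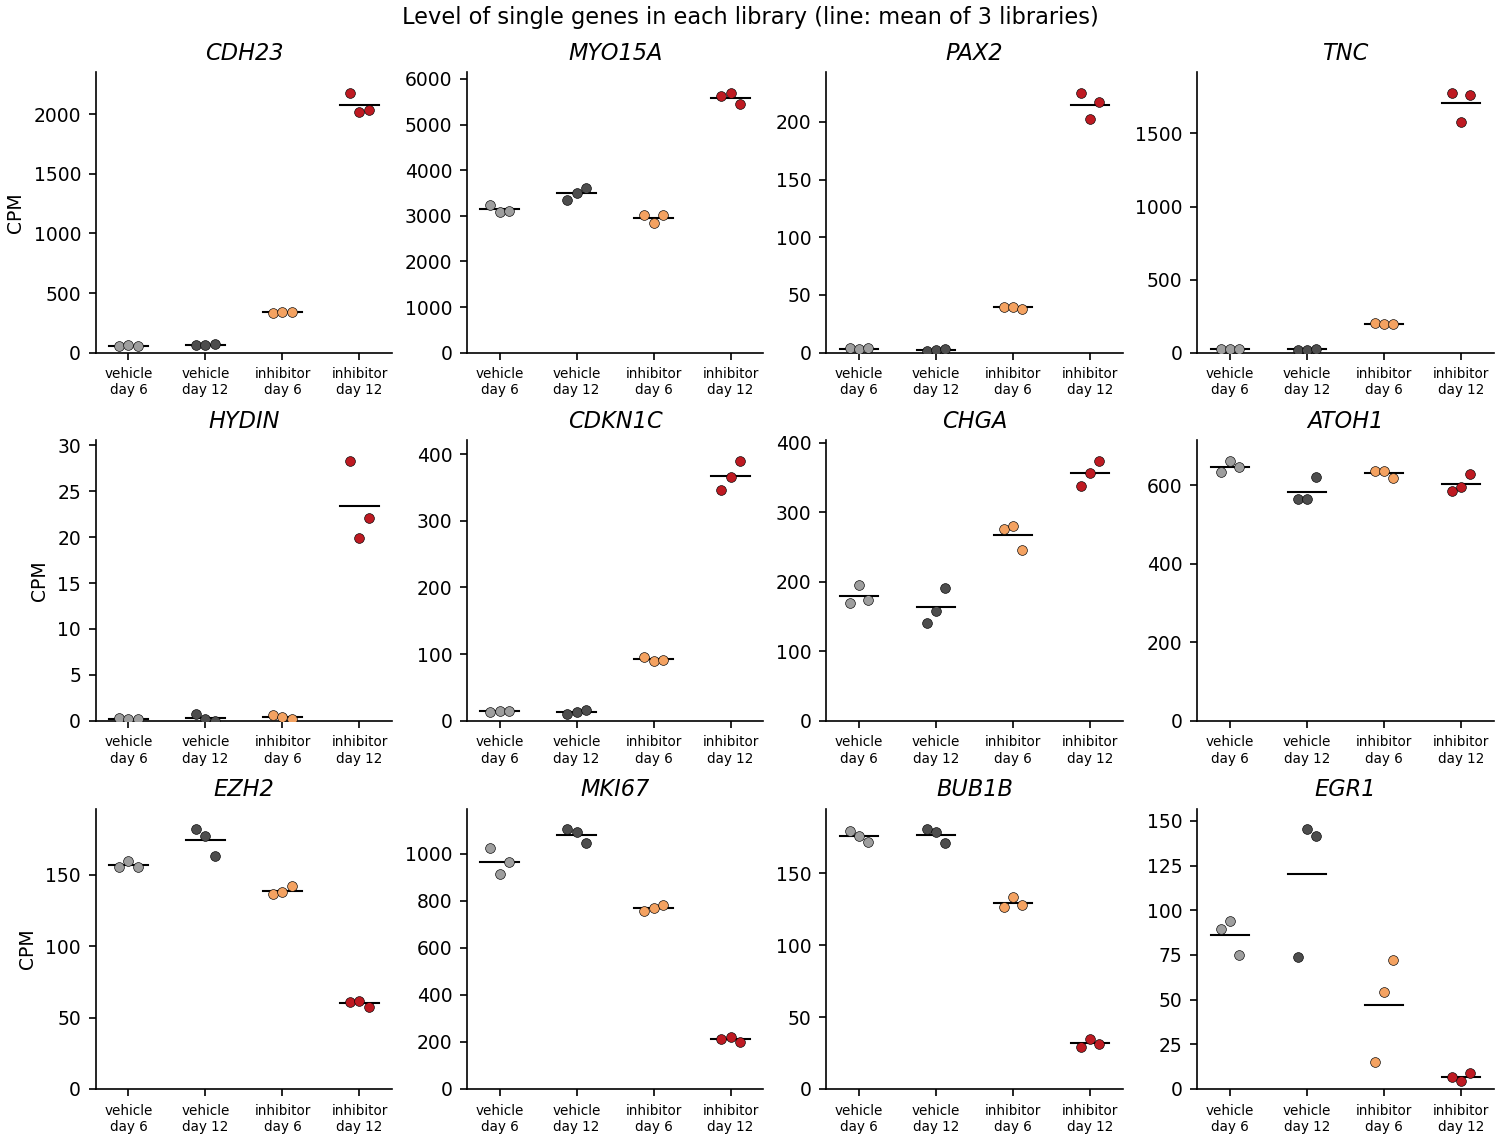
Level in CPM (y, from 0) in each library of the 4 groups (x) for 12 genes, 1 panel a gene, 1 point a library and a line at the mean of 3 libraries. The treated libraries of day 12 lie below those of day 6 for EZH2 and MKI67 and above them for PAX2, CDH23 and CDKN1C.

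Most tested genes of the motile cilium rose. Of 64 listed genes of motile cilia and their axoneme 56 passed the low-count filter, some of them only through the treated libraries of day 12, and of these 47 rose and 5 fell, with a median log2 change of 2.18, against 2 and 1 in vehicle cells (median 0.01). Against the vehicle change 34 were higher and 4 lower. A gene that passed only through those libraries had to be higher in them, so the counts and the median are a description. Levels were low: the summed level of the list was 589 CPM at day 6 and 1291 CPM at day 12 of treatment, with 541 and 578 CPM in vehicle cells. FOXJ1, the factor that switches on the motile cilium programme (chr17:76136333-76141299, minus strand), stood at 5.87, 6.15 and 6.92 CPM at day 6 and 36.6, 34.2 and 42.1 CPM at day 12. Vehicle libraries held 1.93, 2.23 and 1.48 CPM and 1.29, 1.79 and 1.03 CPM of it, and the difference from the vehicle change was 3.01 ± 0.27 on the log2 scale (adjusted p = 5.46e-07). Structural genes of several parts of the axoneme rose. The outer dynein arm chain DNAI2 went from 1.62, 1.92 and 2.37 to 15.8, 10.2 and 13.6 CPM, and the heavy chain DNAH5 changed by 3.19 ± 0.35. RSPH1 and RSPH4A, of the radial spokes, changed by 3.67 ± 0.44 and 2.0 ± 0.21. CCDC40, of the ruler that spaces the arms (chr17:80036632-80100613, plus strand), went from 17.8, 19.9 and 18.6 CPM to 113, 103 and 116 CPM. CFAP70 rose from 10.1, 8.27 and 7.15 to 93, 78 and 79.2 CPM. HYDIN, of the central pair, stood at 0.685, 0.384 and 0.231 CPM at day 6 and 28.3, 19.9 and 22.1 CPM at day 12, but has a close copy elsewhere in the genome. MCIDAS, which directs cells to become multiciliated, fell from 3.33, 2.88 and 3.58 to 0.818, 0.703 and 0.73 CPM, and CCNO, which helps to multiply the basal bodies, fell from 3.72, 4.74 and 4.04 to 0.92, 1.86 and 1.35 CPM. RFX3, a factor for ciliary genes, rose by 0.55 ± 0.08, and RFX2, at 0.44 ± 0.19, did not pass the test. The other fallers were the inner arm heavy chain DNAH3 (-2.43 ± 0.22), CFAP298 (-0.29 ± 0.07) and SPAG16 (-0.24 ± 0.09). CHR letters were found in 12.8% and E2F letters in 5.13% of this list's promoters.

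Neuroendocrine genes, for hormone granules and their release, rose in 17 of 26 tested cases (37 listed) and fell in 7 (median 0.39), with 16 higher and 5 lower against the vehicle change. Chromogranin A (CHGA), a granule core protein (chr14:92923080-92935293, plus strand), went from 276, 280.2 and 246 CPM to 338, 357 and 374 CPM (log2 change 0.41 ± 0.09, adjusted p = 0.00118). Chromogranin B (CHGB) changed by 1.17 ± 0.07 and secretogranin SCG2 by 0.94 ± 0.10. SYT1, the calcium sensor for fast vesicle release, rose from 17.8, 19.4 and 18.1 CPM to 117, 89 and 99.2 CPM. The hormone convertase PCSK2 rose by 1.43 ± 0.05, while its relative PCSK1 fell (-0.52 ± 0.09). CGA, the shared alpha subunit of the pituitary glycoprotein hormones (chr6:87085498-87095406, minus strand), was at or near zero at day 6 (0.147, 0.641 and 0 CPM) and stood at 31.8, 24.5 and 30 CPM at day 12. A gene like this may have passed the low-count filter only through the treated libraries of day 12, so this list's counts and median are a description. Other fallers were VGF, a granule peptide precursor (-1.03 ± 0.14), and CADPS2, a priming factor (-1.22 ± 0.31). ENO2, a common neuroendocrine marker, changed by -0.25 ± 0.05, and the tumour marker UCHL1, at -0.01 ± 0.03, did not pass the test.

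Among 46 tested genes for neural adhesion and axon guidance 25 rose and 11 fell (median 0.50), with 20 higher and 10 lower against the vehicle change. CNTN2, an adhesion protein of axons (chr1:205042937-205078284, plus strand), went from 411, 395 and 394 CPM to 1423, 1394 and 1491 CPM. UNC5A, a netrin receptor, rose from 75.7, 75.3 and 81.7 to 246, 249 and 255 CPM, whereas DCC, the netrin receptor it pairs with, fell from 21.1, 22.1 and 23.1 to 7.42, 9.09 and 6.12 CPM. SEMA5A, a guidance cue, and EPHA4, an ephrin receptor, rose by 2.67 ± 0.25 and 1.82 ± 0.13. NCAM1 changed by -0.73 ± 0.04, while its relative NCAM2 rose by 1.22 ± 0.13. Tubulins and neuronal cytoskeleton genes were divided, 11 of 32 higher and 15 lower, with 12 positive and 14 negative differences. TUBA1B, a widespread alpha-tubulin (chr12:49127782-49131397, minus strand), went from 2084, 2199 and 2198 CPM to 798, 845 and 809.6 CPM, and TUBB3, the beta-tubulin of neurons, from 211, 214 and 219 to 411, 377 and 421 CPM. TUBB2A and TUBB2B, which are near-identical and may share reads, rose by 1.10 ± 0.08 and 1.07 ± 0.11. MAP2, of dendrites, rose by 0.78 ± 0.05, and the neurofilaments NEFL, NEFM and NEFH changed by -0.22 ± 0.05, -0.31 ± 0.05 and -0.39 ± 0.04.

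Of 39 tested voltage-gated and leak channels 21 rose and 8 fell (median 0.44); 5 falls were called without treated day 6 replicate 1 or without treated day 12 replicate 3. The difference was positive for 17 and negative for 6. KCNA2, a potassium channel of axons (chr1:110519837-110631474, minus strand), stood at 79.5, 73.1 and 67.7 CPM at day 6 and 383, 386 and 366 CPM at day 12. The calcium channel CACNA1D, which carries the calcium current of hair cells, changed by 1.53 ± 0.15, and the sodium leak channel NALCN by 2.73 ± 0.45. KCNJ3, a potassium channel opened by G proteins, had the largest fall of the list (-1.70 ± 0.43).

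Of 44 tested collagens and matrix glycoproteins (54 listed) 19 rose and 9 fell (median 0.25; 5 falls with transcript lengths as an offset). At least 2-fold were 15 of the rises and all 9 falls, and fitted log2 changes ran from -6.21 to 3.86. The genes named below are risers, so they do not stand for the whole list. In vehicle cells 1 rose and 6 fell (median -0.30), and against the vehicle change 14 were higher and 4 lower. Tenascin C (TNC), a glycoprotein of developing and injured tissue (chr9:115019578-115118257, minus strand), stood at 201, 194 and 198 CPM at day 6 and 1777, 1578 and 1762 CPM at day 12. Vehicle libraries held 24, 22.4 and 22.9 CPM at day 6 and 20.5, 20.2 and 28.2 CPM at day 12. The collagens COL16A1 and COL19A1 went from 2.45, 2.76 and 2.71 to 34.3, 28.2 and 31.1 CPM and from 4.7, 6.73 and 4.73 to 28.3, 31.7 and 27.2 CPM. Among 22 tested integrins and laminins 9 rose and 6 fell (3 to 5 rises with transcript lengths as an offset or by limma), with 6 differences in each direction. The integrin ITGB1, which pairs with most alpha chains, went from 339.5, 337 and 322 to 202, 205 and 189 CPM, and LAMA3, a laminin chain of epithelial basement membrane, from 90.8, 81.9 and 96.6 to 27.8, 24.7 and 24.5 CPM. LAMA5, a widespread laminin chain, rose by 0.73 ± 0.09.

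**Figure D5:**
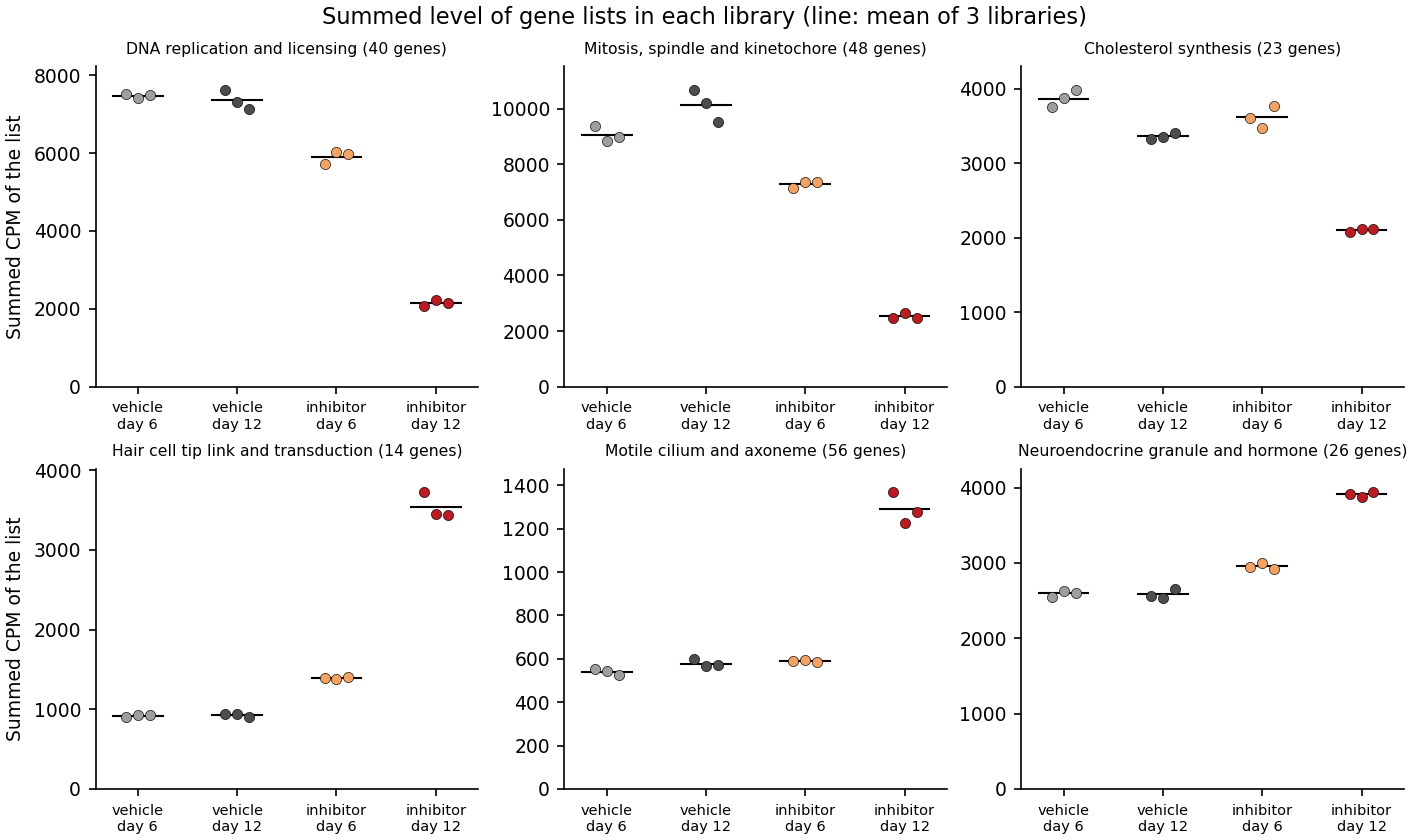
Summed level in CPM (y, from 0) of the tested genes of 6 lists in each library of the 4 groups (x), 1 panel a list, 1 point a library and a line at the mean of 3 libraries. Treated day 12 means are 2149 CPM for replication and 2540 CPM for mitosis genes against 5906 and 7293 CPM at day 6, and 1291 CPM against 589 CPM for cilium genes.

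In the Notch pathway 14 of 28 tested genes rose and 6 fell (median 0.29), and the difference from vehicle was positive for 9 and negative for 3. The ligand JAG2 rose from 161, 151 and 161 to 303, 291 and 312 CPM and the inhibitory ligand DLL3 by 0.64 ± 0.10, while the ligand DLL4 fell from 22.2, 23.3 and 23.2 to 8.64, 9.8 and 8.31 CPM. Among targets of the pathway HES1 fell from 12.7, 14.4 and 16.6 to 6.6, 8.24 and 6.18 CPM, NRARP changed by -0.56 ± 0.11, DTX1 rose by 0.65 ± 0.22, and HEY2, at 0.09 ± 0.34, did not pass the test. In the Wnt pathway 4 of 38 rose and 8 fell, with 6 positive and 7 negative differences. Its targets NOTUM, AXIN2, ZNRF3 and LEF1 changed by -1.89 ± 0.13, -0.27 ± 0.11, -0.40 ± 0.11 and -1.17 ± 0.27, and the ligand WNT9A rose from 4.31, 4.29 and 3.52 to 15.1, 13 and 16.2 CPM. For TGF-beta and BMP signalling 12 rises and 17 falls were called among 46 tested genes (median -0.21), with 7 positive and 13 negative differences. The largest fitted rise of this list was 11.1 on the log2 scale, from a level near zero at day 6. Such a gene may have passed the low-count filter only through the treated libraries of day 12, so this list's counts and median are a description. Over all tested genes 27.8% rose and 29.8% fell. The ligand BMP7 went from 68.2, 67 and 63.5 to 26.1, 29.7 and 23.7 CPM, its receptor BMPR1A changed by -1.0 ± 0.10, and the targets SMAD6 and ID1 by -1.46 ± 0.19 and -0.73 ± 0.06. HOX genes, known targets of Polycomb, moved little as a list, with 3 of 26 higher, 7 lower, a median of -0.13 and 3 differences in each direction. HOXC13 rose from 6.56, 6.02 and 5.88 to 13.3, 13.9 and 15.9 CPM and HOXA13 fell from 16, 15.3 and 12.9 to 5.52, 7.43 and 6.96 CPM. Of the genes listed for these pathways 33 were listed for Notch, 59 for Wnt, 60 for TGF-beta and BMP and 39 for HOX, and the rest did not pass the low-count filter.

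Immediate early genes, which answer to growth signals and handling, were lower in 11 of 29 tested cases and higher in 7 (median -0.50), with 8 negative and 5 positive differences. EGR1, a factor induced by growth signals (chr5:138465490-138469315, plus strand), varied between the treated libraries of day 6 (15.3, 54 and 72.2 CPM) and was lower in each of day 12 (6.9, 4.47 and 9.1 CPM). FOS showed the same low replicate 1, at 16.6, 37.7 and 47.9 CPM on day 6 and 9.26, 5.93 and 9.04 CPM on day 12. NR4A2 and ETV5 rose by 1.14 ± 0.14 and 1.37 ± 0.24. In the BCL2 family, which decides on cell death, 5 of 15 rose and 6 fell, with 4 positive and 2 negative differences (3 rises without treated day 12 replicate 2, with transcript lengths as an offset or by limma). BCL2, a survival factor, went from 108, 110.0 and 119 to 41.8, 44.8 and 42.4 CPM, and its relative BCL2L1 from 423, 414 and 413 to 637, 647 and 650.2 CPM. HRK, which promotes death in neurons, rose from 27.8, 24.7 and 24.9 to 100.4, 91.5 and 96.5 CPM. Targets of p53 had no common direction, 8 of 27 higher and 8 lower, with 6 positive and 9 negative differences. These counts are near the 27.8% higher and 29.8% lower over all tested genes. Of the p53 targets MDM2 changed by -0.16 ± 0.06, BAX by -0.45 ± 0.10 and SUSD6 by 1.10 ± 0.08.

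In 28 tested interferon response genes 6 rises and 7 falls were called, with 5 positive and 8 negative differences. The shares over all tested genes were 27.8% higher and 29.8% lower. HERC5 went from 11.6, 11.1 and 11.2 to 2.56, 3.11 and 1.46 CPM and OAS3 went from 126, 131 and 129 to 67.7, 77.8 and 62.1 CPM. For MHC class I presentation 3 of 18 rose and 3 fell, with 3 differences in each direction, but HLA-B and HLA-C were summed at 0.01 and 0.33 times their level in the authors' table, and without such genes 1 rise was called. The transactivator NLRC5 changed by -0.90 ± 0.14. Immunoglobulin and B cell genes, which Merkel cell carcinoma is known to express, fell in 5 of 9 tested cases (20 listed) with none higher (median -0.49). Vehicle cells had 3 of them lower and none higher (median -0.28), and 4 were lower against the vehicle change. IGHM, the heavy chain of IgM, went from 94.9, 103 and 98.1 to 41.3, 44.4 and 48 CPM, and CD79B, a signalling chain of the B cell receptor, from 1.76, 1.6 and 2.37 to 0.46, 0.251 and 0.0562 CPM. The last of these values lies below the level that 3 reads give.

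Genes of cholesterol synthesis and uptake fell in 18 of 23 tested cases and rose in 1 (median -0.66). In vehicle cells 10 were lower and none higher (median -0.27), and against the vehicle change 13 were lower and 1 higher. INSIG1, a sensor of sterols, went from 186, 177 and 199.7 to 53.8, 52.9 and 52.3 CPM, with no overlap between the days. SCD, which makes unsaturated fatty acids and shares regulators with this pathway (chr10:100347124-100364834, plus strand), had 1015, 926 and 1121 CPM at day 6 and 232, 231 and 266 CPM at day 12. Its vehicle change was -0.57 ± 0.08 and the difference -1.50 ± 0.12 on the log2 scale (adjusted p = 1.8e-07). Of 30 tested genes for amino acid and protein folding stress 12 rose and 8 fell, with 11 positive and 5 negative differences. Both enzymes that start serine synthesis moved, in opposite directions: PHGDH fell from 308, 306 and 318 to 145, 156 and 158 CPM and PSAT1 rose from 149, 156 and 153 to 442, 411 and 420.4 CPM.

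Genes of the ribosome and of its assembly fell more often than they rose. For cytosolic ribosomal proteins 32 of 60 fell and 3 rose, by small amounts (median -0.15), and 24 were lower and 3 higher against the vehicle change. Ribosome biogenesis genes fell in 18 of 30 cases and rose in 7 (median -0.31; 4 rises with transcript lengths as an offset), with 13 negative and 6 positive differences. The nucleolar proteins NPM1, NCL and FBL stood at -0.87 ± 0.06, -0.86 ± 0.04 and -1.06 ± 0.07. MYCL, the MYC relative of neuroendocrine tumours, rose from 169.6, 165 and 167 to 308, 283 and 302 CPM. Nuclear genes for oxidative phosphorylation fell in 18 of 43 cases and rose in 2 (median -0.12; 4 rises without vehicle day 12 replicate 1). In vehicle cells 8 of them fell and 0 rose, with the same median of -0.12, and the difference was negative for 13 and positive for 6. Of 13 mRNAs encoded in mitochondria 7 fell and 1 rose (median -0.24), with 9 negative and 0 positive differences. MT-CO1, a subunit of cytochrome oxidase, went from 14575, 14521 and 15195 CPM to 13016, 12337 and 12156 CPM, a change not called without treated day 6 replicate 3 (adjusted p = 0.0535) or treated day 12 replicate 3 (adjusted p = 0.0552). The rise of MT-ND1 (0.16 ± 0.05) was likewise not called without treated day 6 replicate 2 or 3 or treated day 12 replicate 1. Heat shock genes, 11 tested, had 2 higher and 5 lower, with 8 negative and 0 positive differences. The mitochondrial chaperonin HSPD1 stood at -0.87 ± 0.03. The count of falls was 8 without vehicle day 12 replicate 3, and that of rises was 1 when any library other than vehicle day 12 replicate 1 or 3 was left out.

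Among all genes, the 15 largest rises with a well-assigned sum included genes of the hair cell, cilium and neuroendocrine lists already named and a few outside them. ARMC3, a gene of ciliated cells and testis, went from 0.196, 0.256 and 0.115 to 18.4, 14.8 and 15.7 CPM, and ASIC2, an acid-sensing ion channel of neurons (chr17:33013087-34174964, minus strand), from 0.245, 0.961 and 0.519 to 27.9, 22.2 and 28.5 CPM. BAIAP2L2, which shapes membranes at the tips of stereocilia, went from 1.42, 1.54 and 2.08 to 31.7, 26.5 and 27.3 CPM. The glutathione peroxidase GPX2 and the potassium channel KCNA10 rose from 0.245, 0.192 and 0.288 to 6.39, 6.93 and 6.29 CPM and from 0.636, 0.384 and 0.115 to 9.36, 6.33 and 7.69 CPM. Of these genes GPX2 is known from the gut lining. Genes near zero at day 6 may have passed the low-count filter only through the treated libraries of day 12. Their place among the largest rises is therefore a description. By change in CPM, large gains were those of MYO15A, TNC and MYO6, given above, and of KIF19, a motor that trims cilia (424, 433 and 435 CPM to 1620.2, 1533 and 1637 CPM). ABCA5, a lipid transporter, gained from 692, 688 and 694 to 1993, 1840.5 and 1870.3 CPM.

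No read was found in the 3 treated libraries of day 6 for 14 genes that were called higher at day 12, and none at day 12 for 15 genes called lower. Genes without a read on 1 day may have passed the low-count filter only through the other day, where they were high. These counts and the fold sizes below are therefore a description. GDF1, a TGF-beta family ligand (chr19:18868545-18896096, minus strand), had 15, 16.9 and 14.8 CPM at day 12 and was at least 91.3-fold higher, against a floor of 3 reads in each library of day 6. It overlaps CERS1, with which it can share a transcript, and reads of the pair may be split between them. CTXND2 was at least 8.29-fold higher, the cilium gene CFAP107 at least 8.31-fold and the kinase gene PLK5 at least 5.13-fold. Others of this kind, DISP1 and PANK4, were summed at 0.143 and 0.320 times their level in the authors' table, and limma on that table (pseudocount 1) gave changes of -0.10 and -0.02.

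Steep falls outside the cell cycle took in signalling and membrane genes. ERBB3, a receptor of the EGF receptor family (chr12:56076799-56103505, plus strand), went from 41.6, 38.9 and 40.6 CPM to 6.39, 8.99 and 8.48 CPM. ITPR3, a channel that releases stored calcium, went from 88.9, 92.4 and 89.7 to 16.8, 19.3 and 19.6 CPM, although vehicle libraries held less of it than treated libraries of day 6 (53, 55.4 and 54.6 CPM at day 6 and 59.2, 53.1 and 59.5 CPM at day 12). ADRA2B, an adrenergic receptor, went from 113, 111 and 109.7 to 25.3, 25.6 and 19.1 CPM, and MAN1A1, which trims glycans of new proteins, from 60.1, 62.4 and 61.2 to 12.9, 12.6 and 10.5 CPM. FBLN7, a matrix adhesion protein, SLC30A2, a zinc transporter, and PLA2G3, a secreted phospholipase, changed by -3.20 ± 0.22, -2.85 ± 0.14 and -2.92 ± 0.29 on the log2 scale. The fitted fall of the chemokine CXCL8 rested on 1 library: it stood at 23.7, 1.86 and 2.02 CPM at day 6 and 0.358, 0.603 and 0.168 CPM at day 12, and was not called without treated day 6 replicate 1 (adjusted p = 0.174). Among large falls in CPM, the glycolytic enzyme GAPDH, often used as a constant reference, went from 1920.3, 1950.2 and 1981 CPM to 966, 1017 and 977 CPM. PTMA, a chromatin protein of growing cells, fell from 1736, 1774 and 1725 to 803, 915 and 864 CPM.

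Some genes moved one way in treated and the other way in vehicle cells. KIF19 rose in treated cells by 1.89 ± 0.05 and changed by -0.30 ± 0.05 in vehicle cells on the log2 scale, and the difference was 2.19 ± 0.07 (adjusted p = 2.26e-10). BLCAP and CYB5R1 had differences of 1.58 ± 0.07 and 1.58 ± 0.07. BLCAP, a gene for a small protein lost in bladder cancer, stood at 217, 219.7 and 226 CPM at day 6 and 617, 554 and 558 CPM at day 12 of treatment and at 74.5, 79.8 and 79.7 CPM and 68.2, 67.7 and 68.8 CPM with vehicle. In the other direction MKI67, KIF4A, TOP2A and TPX2, all of the mitosis list, had differences of -2.03, -1.99, -1.94 and -1.79. HSPA2, a chaperone, and SLC38A5, an amino acid transporter, had differences of -1.69 ± 0.07 and -2.02 ± 0.08. For each of the 6 genes named here as falling, all 3 treated libraries of day 12 lay below all 9 others. All these genes were chosen for opposite calls on the same values, so their differences, with the adjusted p, are a description. The vehicle part of these pairs rests on calls that change with the libraries used.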

How the data were processed

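Poly(A)-selected RNA of MKL-1 cells was sequenced as 12 libraries in 4 groups of 3, grouped by their titles. The authors deposited 1 Salmon table a library, with estimated counts and TPM per transcript. The submitters' processing notes name FastQC, Salmon 1.2.0, DESeq2 and hg38. The authors also deposited a table of normalised gene signal; how it was scaled is not given in the sources for this text. Of 179883 transcripts, 168219 (93.5%) matched a gene of GENCODE (GRCh38). Estimated counts were summed over 35347 genes and rounded. Each gene's sum was divided by its level in that table, with the median gene at 1. Sums outside 0.8 to 1.25 are taken as uncertain. The test was edgeR 4.0.16 (R 4.3.3): TMM scaling, its default low-count filter (15024 genes), 1 quasi-likelihood fit of the 4 group means with 8 residual degrees of freedom, two-sided, with Benjamini-Hochberg adjustment over all genes. Errors of log2 changes are standard errors. CPM use TMM-scaled totals, and 3 reads correspond to 0.147 to 0.193 CPM on that scale, a floor that covers counting error only. The sums of the cell type markers and the levels of unmatched transcripts use library totals without TMM. Alternatives included DESeq2 1.42.0 and limma 3.58.1 on log2(signal + 1 or 5). The scripts were tested on simulated data.

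Named genes were the 15 largest rises and falls by log2 change and the 8 by CPM among called genes at 5 CPM or more whose days did not overlap and whose sum was not uncertain, up to 3 genes of smallest p per list, the 8 largest rises from no read, the 6 of smallest p per direction with opposite vehicle calls, and 13 genes fixed by name. Other list members were named after their values were seen. The comparison, the 42 lists and the tests were chosen with earlier results of these data known. Promoter sequences came from RefSeq. Genes were ranked or grouped by CPM or by change in CPM, but levels were not otherwise compared between genes. Some genes that the rule would name are not reported here.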

Additional observations from a re-analysis of the deposited data

Results flagged for a closer look

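The day change of treated cells differed from that of vehicle cells, by edgeR's test of the difference itself, for 3401 genes in the positive and 3767 genes in the negative direction. Among the 12 genes chosen for opposite calls in treated and vehicle cells, the difference in log2 change was positive for KIF19 (2.19), CYB5R1 (1.58), BLCAP (1.58), RAB15 (1.43), C14orf132 (1.33) and PRXL2A (1.32). It was negative for MKI67 (-2.03), SLC38A5 (-2.02), KIF4A (-1.99), TOP2A (-1.94), TPX2 (-1.79) and HSPA2 (-1.69). These genes were chosen on the same values, so their differences are a description.

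Reads on transcripts that matched no gene, which enter no comparison, made up 3.57% of the reads of treated libraries on day 12 on average, above the 3.08 to 3.15% of treated libraries on day 6 and the 3.09 to 3.16% of vehicle libraries on both days. Of these transcripts, ENST00000425848.6 went from 809 to 1795 CPM between the days in treated cells, with 719 and 715 in vehicle cells, and ENST00000415649.4 from 264 to 981, with 191 and 189 in vehicle cells. ENST00000383564.8 went from 804 to 387 and ENST00000652689.1 from 284 to 120 CPM in treated cells. The files used here give no gene name for them.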

How the results depend on the processing

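Under the alternatives tried, the counts of genes higher and lower in treated cells at day 12, and of genes with a difference from vehicle, stayed within 1.5 times except where the test asked for a change beyond 1.5-fold. That limit left 1402 higher and 1340 lower in treated cells, 1098 and 935 of them by at least 2-fold, 1100 and 1158 differences, and 1 higher and 1 lower in vehicle cells. Leaving out 1 library at a time gave 3755 to 4429 higher and 4106 to 4710 lower in treated cells, 1268 to 1441 and 1037 to 1122 by at least 2-fold, and 2961 to 3544 and 3524 to 4044 differences. Vehicle counts ranged from 93 (without vehicle day 6 replicate 2) to 2147 (without vehicle day 12 replicate 3) higher and from 89 (without vehicle day 6 replicate 3) to 2036 lower. They were 1454 higher by DESeq2's test, 5 and 4 with the vehicle libraries alone, 46 and 43 with transcript lengths as an offset, 72 and 74 by limma with a pseudocount of 1, 72 and 78 with 5, and 78 and 103 at an adjusted p under 0.01. The cause was not tested. Same-numbered libraries deviated with correlations of -0.018 to -0.0061 in treated and 0.0051 to 0.086 in vehicle cells. Those of unlike number ranged from -0.0039 to 0.018 and from -0.13 to 0.087. Such correlations cannot show whether same-numbered libraries share a culture, and the main fit did not pair them. With the replicate block 4173 and 4503 genes were called in treated cells, 1050 and 1315 in vehicle cells, and 3398 and 3763 differed. Signs turned only for changes that are near 0 or uncertain in sum: KRT20 (0.00075 with DESeq2's size factors, 0.016 with library totals, 0.00056 by DESeq2's test, -0.11 to 0.11 over the fits without 1 library, above 0 without treated day 6 replicate 3 and without treated day 12 replicate 1), KRT10 (-0.046 with transcript lengths, -0.074 and -0.070 by limma with 1 and 5), and, by limma, DISP1 (-0.096 and -0.091) and PANK4 (-0.025 and -0.024). The difference could not be fitted with the libraries of a single contrast. Depth limits genes under about 1 CPM, where libraries hold few reads.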
